A study of Mus musculus with 12 samples.

Results

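The genes described here are 50 ribosome biogenesis factors of the mouse, taken by name from the 41128 genes counted by RNA-Seq in PreMegEs, a progenitor of the bone marrow that gives rise to both megakaryocytes and erythroid cells. They are the RNA polymerase I machinery (8 genes) and nucleolar chaperones and scaffold proteins (4). Others are proteins of the box C/D (4) and box H/ACA (4) small nucleolar ribonucleoproteins (snoRNPs). The rest are factors that process and assemble the small (15) and the large (15) ribosomal subunit. Each name was found in the count table, and each gene was expressed well enough to be tested in every comparison. The libraries came from 4 groups of C57BL/6 mice aged 12 to 16 weeks, with 3 libraries per group. The study pooled the bone marrow of 3 mice in each library that it describes. WT PreMegEs were from wild type mice. P2+ and P2- PreMegEs were from Runx1 P1-GFP::P2-hCD4/+ mice, which carry 1 reporter allele, with GFP placed at the distal promoter P1 and a truncated human CD4 at the proximal promoter P2, beside 1 intact Runx1 allele, and the P1+ cells were separated by hCD4 into cells with (P2+) and without (P2-) activity of P2. RUNX1C KO PreMegEs were from mice without the Runx1 isoform that is transcribed from P1, while P2 was intact. In the paper such mice are homozygous for an allele with GFP placed at P1 (P1-GFP/GFP). The paper describes RNA-Seq of WT, P2+ and P2- PreMegEs only, so pooling in the RUNX1C KO libraries is assumed from those groups. The count of Runx1 joins the transcripts of both promoters, so its level in RUNX1C KO PreMegEs (360 ± 20.4 CPM, counts scaled to library size by the TMM method, SD, n = 3) beside that in WT PreMegEs (369 ± 15.6) does not check the knockout. Between P2+ (631 ± 24.2 CPM) and P2- PreMegEs (211 ± 7.34) Runx1 differed in the direction of the sort.

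Ribosomes are built in the nucleolus. RNA polymerase I transcribes the ribosomal RNA (rRNA) precursor, snoRNPs guide its chemical modification and its first cuts, and a succession of assembly factors, helicases and GTPases trims it and joins it with ribosomal proteins into the subunits that are exported to the cytoplasm. The genes for these factors are often expressed together in growing and dividing cells, and many of them are known targets of the transcription factor Myc. Erythroid progenitors in particular depend on a high rate of ribosome production, and inherited defects in it cause anaemia. The libraries were made from poly(A) RNA, so the values below are mRNA levels of the factors, and rRNA itself was not measured.

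Libraries held from 10726098 to 14445026 counts in total, and a member had between 50 and 21804 counts in a library, with Fbl the lowest. Members at a mean of 100 CPM or more over all libraries numbered 17, and 8 members were under 30 CPM. Per length, Ncl (nucleolin) had the highest mean level in WT PreMegEs with 128 ± 5.45 RPKM (CPM per kilobase of exon, SD, n = 3), followed by the helicase gene Ddx21 with 92.5 ± 4.51 and by Nop10 with 74.6 ± 8.72 RPKM. The lowest was Fbl, the methyltransferase of the box C/D snoRNPs, with 1.38 ± 0.381 RPKM. Some members share sequence with other genes, through copies or overlap, and stretches with at least 97% identity to a transcript of another gene covered over 30% of the transcript of 6 members (Npm1, Npm3, Fbl, Nop56, Tsr1 and Mrto4). Bowtie2 was run with its default settings, under which 1 alignment is reported per read, and the options of featureCounts for reads with several alignments are not given in the sources used here, so the levels of these 6 are uncertain. For Npm3 the annotated pseudogene Npm3-ps1 had between 2250 and 4549 counts in a library, where Npm3 itself had between 97 and 241.

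Markers of the PreMegE gate were as the cell type requires for Kit, at a mean of 814 to 1087 CPM over the groups, and for Slamf1, at 36.0 to 59.1 CPM, while Ly6a and Fcgr3 were at 3.31 CPM or less. Itga2b, at 51.0 to 282 CPM, and Eng, at 104 to 128 CPM, were not low. Differentiation markers differed between the groups. The summed level of 7 erythroid markers was 4362 to 5075 CPM in P2- and 4323 to 4869 in RUNX1C KO libraries, 2441 to 2827 in WT and 574 to 657 in P2+ libraries, with all 7 lower in P2+ than in P2- PreMegEs (edgeR, adjusted p under 0.05). The 7 megakaryocyte markers summed to 144 to 197 CPM in P2-, 342 to 374 in RUNX1C KO, 551 to 645 in WT and 864 to 1288 in P2+ libraries, and all 7 were higher in P2+ than in P2- PreMegEs. Of other cell types, 8 neutrophil and monocyte genes summed to 59.3 to 113 CPM in P2-, 77.3 to 124 in RUNX1C KO, 170 to 294 in WT and 294 to 430 in P2+ libraries, and 5 of them were higher in P2+ than in P2- PreMegEs. The 5 mast cell and basophil genes summed to 24.5 to 28.3, 47.3 to 64.2, 26.9 to 46.9 and 84.3 to 137 CPM in the same order, with 3 higher. The 6 lymphoid genes summed to 1.41 to 4.77, 2.79 to 6.76, 7.07 to 13.1 and 4.58 to 26.6 CPM, with 2 higher and Cd3g at 0 in every library. In these bulk samples fewer cells of a type and less RNA per cell cannot be told apart, and the part of these shifts in cell makeup in the results below was not tested. The replicate 2 libraries of P2- and P2+ PreMegEs stood apart from the others, with 8 immediate early genes (Fos, Jun, Egr1 and others) at a summed 12104 and 7994 CPM, against 149 to 1155 CPM in the other 10 libraries.

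Taken as a sum, the 50 members were highest in P2- and lowest in P2+ PreMegEs. The sum was 6896, 7332 and 7022 CPM in the P2- libraries, 6276, 6108 and 6289 in the RUNX1C KO libraries, 5575, 5670 and 5931 in the WT libraries and 5060, 5464 and 4922 in the P2+ libraries. No group overlapped another. The means were 7083 ± 225, 6224 ± 101, 5725 ± 184 and 5149 ± 282 CPM (SD, n = 3), so that P2+ PreMegEs had 27.3% less than P2- PreMegEs. Ncl alone made up 20.7% to 22.8% of the sum, and Ddx21 8.36% to 9.27%, as group means. With every member weighted equally, as the mean of log2 CPM, the order was the same, at 6.44 ± 0.06 in P2-, 6.28 ± 0.03 in RUNX1C KO, 6.13 ± 0.04 in WT and 5.94 ± 0.08 in P2+ PreMegEs. These scores are given as descriptions, without a test.

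**Figure D1:**
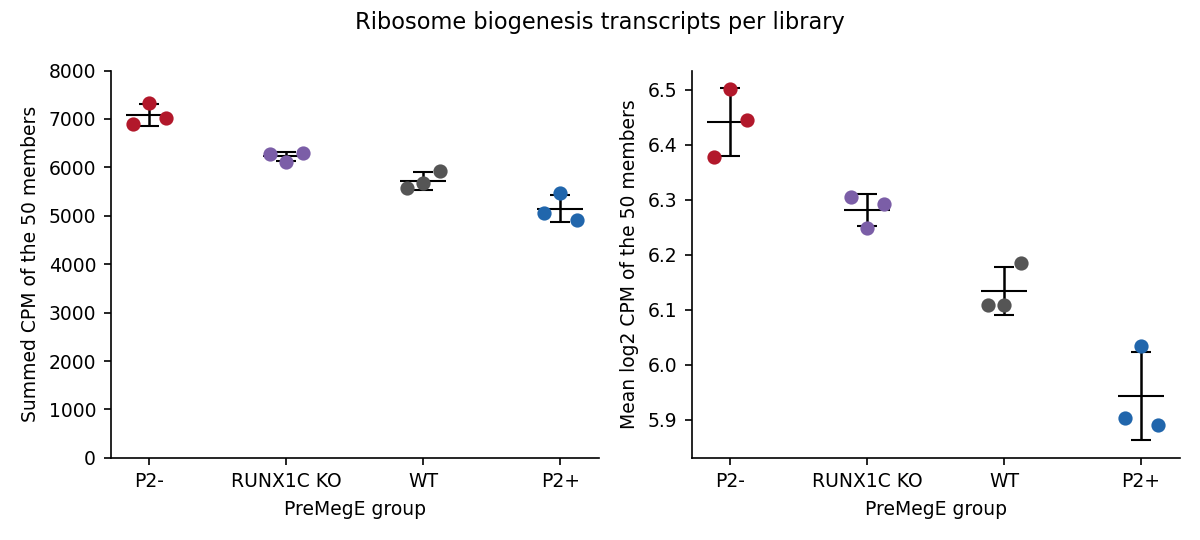
Summed CPM (left, axis from 0) and mean log2 CPM (right, axis not from 0) of the 50 ribosome biogenesis factors in each of the 12 libraries, by group, with bars for the mean ± SD (n = 3). The P2- libraries lie between 6896 and 7332 CPM, above every RUNX1C KO, WT and P2+ library.

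The comparison of P2+ with P2- PreMegEs asked which genes differ with the activity of the proximal promoter among P1+ cells of reporter mice. Of the 50 members, 41 were lower in P2+ than in P2- PreMegEs and 0 were higher (edgeR quasi-likelihood test, Benjamini-Hochberg adjusted p under 0.05 over 12836 genes). Of all genes tested, 17.0% were called lower and 20.1% higher. In this comparison and in the 3 with WT below, the direction with 0 called members also had 0 at an unadjusted p under 0.05 (edgeR) and 0 called by DESeq2. All 50 fold changes pointed down, as did 51.7% of those of all genes, and they did so under each alternative fit. The changes were moderate. The median log2 fold change was -0.45, or 26.6% lower, beside -0.02 over all genes, with a range from -0.96 to -0.13, and 0 members reached a 2-fold difference together with significance, against 3.13% of all genes in this direction. In 46 members every P2+ library was below every P2- library, which held for 25.1% of all genes.

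**Figure D2:**
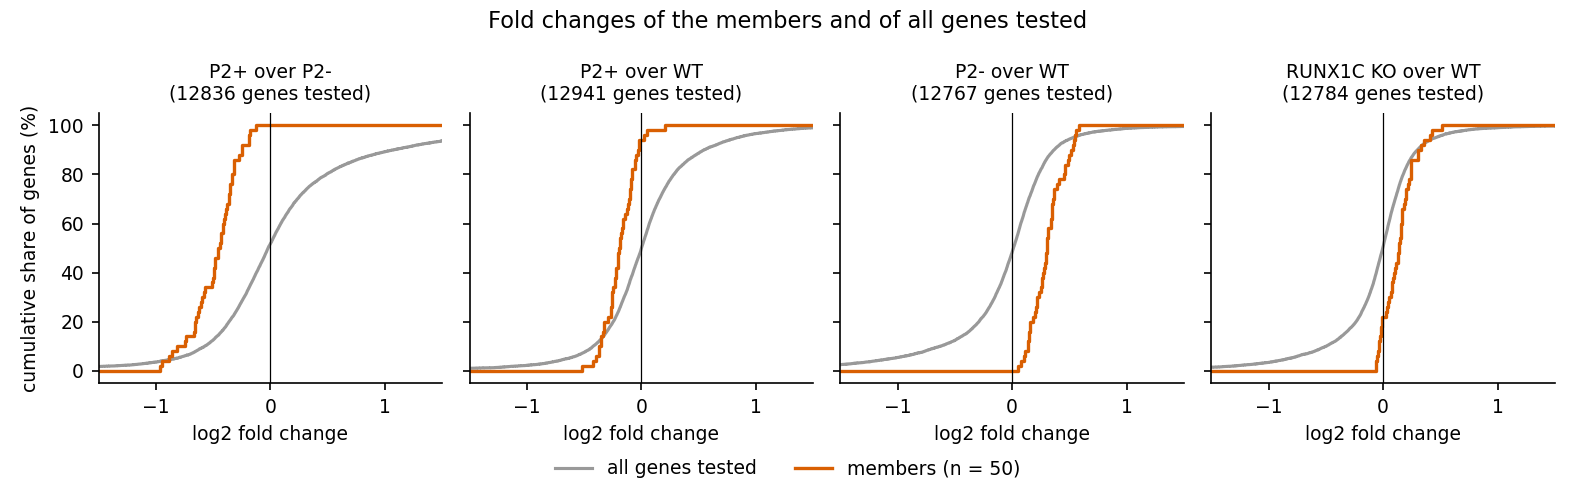
Cumulative share of genes (%) by log2 fold change for the 50 members (orange) and for all genes tested (grey) in the 4 comparisons, cut at 1.5 on either side. The members lie below 0 throughout for P2+ over P2- and above 0 throughout for P2- over WT, while the curve of all genes crosses 0 near its middle in each comparison.

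Same-numbered P2+ and P2- libraries deviated together from their group means, so the fold can also be read within pairs. All 50 members were lower in the P2+ library of each of the 3 pairs, which held for 36.8% of all genes, and the median log2 ratio of the members was -0.43, -0.48 and -0.52 in pairs 1, 2 and 3. With the pair as a block, 48 members were called lower, where 24.8% of all genes were. Without the replicate 2 libraries, 39 members were called lower, and the median was -0.44.

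Among the genes of RNA polymerase I, which transcribes the rRNA precursor, 4 of 8 were lower. Polr1b, a large catalytic subunit, was at 146, 143 and 151 CPM in the P2- libraries, 132, 134 and 124 in RUNX1C KO, 110, 116 and 121 in WT and 90.3, 92.0 and 94.0 in P2+ libraries. All 4 groups were separate, and the log2 fold change between P2+ and P2- was -0.66 ± 0.07 (SE, adjusted p = 9.99e-05, edgeR). Rrn3, which brings the polymerase to its promoter, fell by 0.46 on the log2 scale (SE 0.07, adjusted p = 0.00134), Polr1a by 0.43 and Polr1e by 0.39. Polr1c and Polr1d, the subunits shared with RNA polymerase III, the promoter-binding factor gene Ubtf and Tcof1 (treacle) did not pass the test, with log2 fold changes of -0.37, -0.17, -0.18 and -0.13. In the blocked fit Polr1c (adjusted p = 0.0211) and Ubtf (0.0121) passed, while Polr1d (0.0700) and Tcof1 (0.0822) were the members that still did not. Tcof1 was at 131, 137 and 139 CPM in P2- and at 115, 130 and 125 CPM in P2+ libraries.

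All 4 nucleolar chaperones and scaffold proteins were lower. Ncl, which binds the nascent rRNA precursor, was at 1529, 1681 and 1538 CPM in the P2- libraries and at 1154, 1297 and 1078 CPM in the P2+ libraries, with a log2 fold change of -0.42 ± 0.08 (SE, adjusted p = 0.00391, edgeR). Npm1 (nucleophosmin) was at 213, 207 and 215 against 149, 140 and 156 CPM, and fell by 0.50 on the log2 scale (adjusted p = 0.00075). Nolc1, a chaperone of snoRNPs, fell by 0.61. Npm3 fell by 0.89 ± 0.20 (adjusted p = 0.00868), from 13.4, 19.2 and 17.0 to 8.13, 10.8 and 7.63 CPM. Its pseudogene Npm3-ps1 fell by 0.69 (adjusted p = 0.000201), and Gm14681, which shares sequence with Npm1, by 0.54 (adjusted p = 0.000788). Reads shared between a gene and its copy could enter both counts, and this was not tested. Zfp605, which also shares sequence with Npm1, did not pass (-0.03, adjusted p = 0.889, edgeR), nor did Gm15491, which shares sequence with Npm3 (-0.29, adjusted p = 0.592), or Srr, which shares sequence with Tsr1 (0.51, adjusted p = 0.0961). Tulp4, which shares sequence with Fbl, fell by 1.62 (adjusted p = 0.0121).

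The snoRNP proteins were lower in 7 of 8 cases. The box C/D set, which directs methylation and early cleavage of rRNA, had the largest median of any role. It was -0.67, against -0.34 for the box H/ACA set. Each of these medians rests on 4 genes, and the difference between roles was not tested. Rrp9, a protein of the U3 snoRNP that is needed for the first cuts, had the largest change of any member. It was at 29.9, 29.7 and 30.9 CPM in P2-, 27.4, 23.3 and 32.2 in RUNX1C KO, 20.03, 22.1 and 19.9 in WT and 14.7, 17.1 and 14.2 in P2+ libraries. P2+ PreMegEs were thus 48.7% lower than P2- PreMegEs (log2 fold change -0.96 ± 0.12, adjusted p = 0.000424, edgeR). Nop56 fell by 0.59, Nop58 by 0.35 and Fbl by 0.75 (SE 0.24, adjusted p = 0.0375). For Fbl, with 50 to 118 counts in a library, the call was lost without P2+ replicate 1 or 3, or P2- replicate 2 or 3 (adjusted p from 0.079 to 0.136, edgeR). In the H/ACA set, which carries out pseudouridylation, the synthase gene Dkc1 (-0.31), Gar1 (-0.38) and Nop10 (-0.36) passed, and Nhp2 (-0.24, adjusted p = 0.0726) did not, though it passed with the pair as a block (adjusted p = 0.0284).

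Of the small subunit factors 13 of 15 were lower, with a median of -0.48. Bysl (bystin), which acts late in the maturation of the subunit, was at 104, 106 and 94.1 CPM in P2- and at 62.9, 65.6 and 52.2 CPM in P2+ libraries, a log2 fold change of -0.74 ± 0.10 (adjusted p = 0.000644, edgeR). The export factor gene Rrp12 fell by 0.67 ± 0.12 (adjusted p = 0.00267), from 48.0, 59.3 and 49.7 to 30.2, 35.8 and 32.0 CPM. Rcl1, needed for early cleavage, fell by 0.65 ± 0.09 (adjusted p = 0.000498), from 77.0, 77.0 and 69.6 to 47.4, 48.2 and 45.1 CPM. The libraries of these 3 genes did not overlap. Wdr75, a component of the early processome, fell by 0.65 ± 0.16 (adjusted p = 0.0132), from 30.6, 31.3 and 36.4 to 20.02, 25.4 and 16.7 CPM, and its call was lost without P2- replicate 3 (adjusted p = 0.058). Late factors were among those that fell, with Tsr1 at -0.51, Nob1, the nuclease that trims the rRNA of this subunit, at -0.48 and Ltv1 at -0.46. Utp18 (-0.25) and Noc4l (-0.43) did not pass the unblocked test, and passed in the blocked fit (adjusted p = 0.0407 and 0.00216).

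Large subunit factors were lower in 13 of 15 cases, with a median of -0.49. Mrto4, which holds the place of the ribosomal stalk proteins during assembly, was at 23.4, 30.7 and 29.1 CPM in P2- and at 10.6, 17.9 and 14.3 CPM in P2+ libraries (log2 fold change -0.95 ± 0.20, adjusted p = 0.00624, edgeR). The GTPase gene Gnl3 (nucleostemin) was at 94.7, 141 and 105 against 59.6, 73.5 and 53.5 CPM, and fell by 0.86 ± 0.17 (adjusted p = 0.00363). Nle1, known for its role in the last nuclear steps, was at 32.6, 35.4 and 35.8 against 20.8, 19.7 and 17.8 CPM, and fell by 0.82 ± 0.11 (adjusted p = 0.000627). Each of the 3 genes was lower in every P2+ library than in any P2- library. Pes1, Bop1 and Wdr12 encode a trimeric complex, and their fold changes were unequal in size. Wdr12, at 115, 110 and 110 against 69.8, 74.4 and 70.5 CPM, fell by 0.63 ± 0.07 (adjusted p = 0.000155, edgeR) and Pes1 by 0.44, whereas Bop1, at 91.8, 93.9 and 83.3 against 76.2, 86.9 and 71.0 CPM, overlapped between the groups and did not pass (-0.19 ± 0.09, adjusted p = 0.160). These differences between the fold changes of the 3 genes were not tested. Bop1 and Sbds (-0.33), a factor for release of a block on subunit joining, passed in the blocked fit (adjusted p = 0.0322 and 0.0231).

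**Figure D3:**
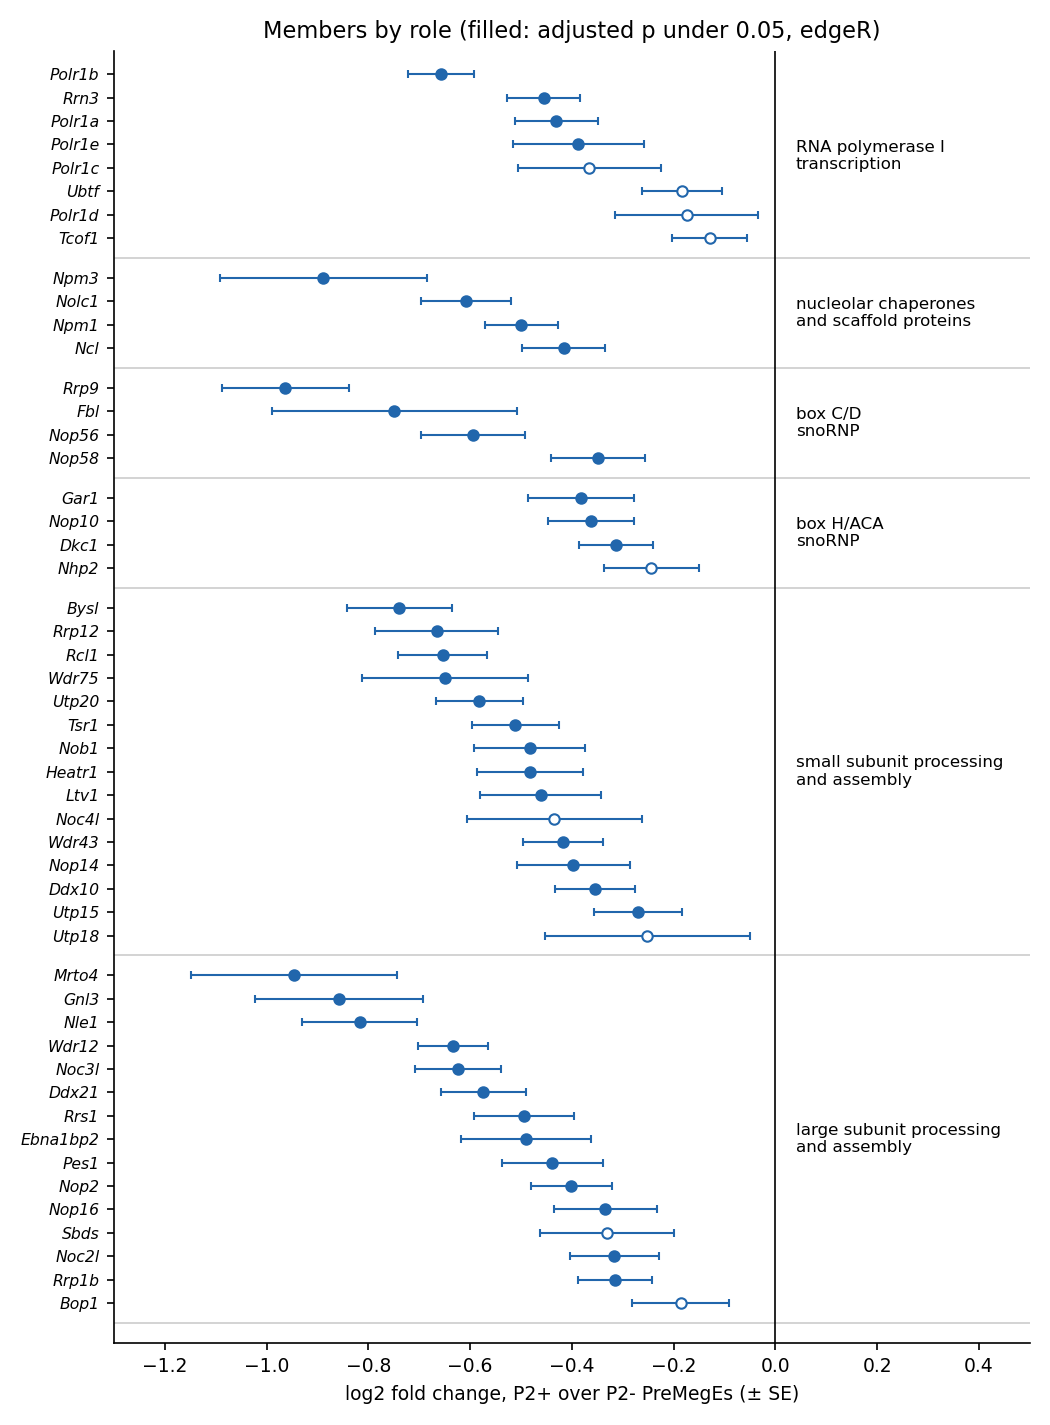
Log2 fold change of each member between P2+ and P2- PreMegEs (points, bars are the SE), ordered within the 6 roles, with filled points for adjusted p under 0.05 (edgeR). All 50 points lie left of 0, from -0.96 (Rrp9) to -0.13 (Tcof1), and 4 of the 9 open points belong to RNA polymerase I transcription.

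Without the 6 members that share much sequence with other genes, 35 of 44 were called lower. Exons of 18 members overlap an exon on the other strand. The libraries were strand-specific, but whether the counting used the strand is not given in the sources used here, and among the other 32 members 25 were called lower. The members lie on 19 chromosomes.

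Promoter sequence was looked up for the members because so many moved together. RefSeq windows (GRCm38.p6) of 250 bases before to 50 bases after the annotated start were found for 43 of the 50 genes, in 52 windows, and Bop1, Rrs1, Sbds, Tcof1, Npm1, Fbl and Rrp12 had none. The E-box CACGTG, the sequence that Myc with its partner Max is known to bind, was in 9 windows (17.3%), beside 7.15% of all 32851 windows and 10.1% of the 11207 windows of genes tested. These were the windows of Ltv1, Nle1, Nop2, Pes1, Rrn3, Tsr1, Utp18, Utp20 and Wdr43. The Ets sequence CCGGAAGT was in 11 windows (21.2%, against 8.34% for genes tested) of 10 genes. The Runx sequence TGTGGT was in 4 windows (7.69%, against 12.8%), those of Bysl, Heatr1, Nop56 and Pes1, and the GATA sequence AGATAA was in 0 (0.00%, against 6.48%). The GC box GGGCGG was in 37 windows (71.2%, against 62.9%). Both strands were searched, and an Ets match can run into a GC box, as it does in the window of Rrn3. The median GC content was 59.5% for members and 60.7% for genes tested. A match is a description of the letters and no evidence of binding, which was not measured here.

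The windows of 4 members called lower that hold the E-box are printed 5′ to 3′ in the direction of the gene, with E-box and Ets letters in capitals, together with that of Rrp9, the member with the largest change, which holds none of the 5 motifs. Nle1 lies at chr11:82908346-82908645 (- strand), Tsr1 at chr11:74897830-74898129 (+ strand), Utp20 at chr10:88826765-88827064 (- strand), Rrn3 at chr16:13780449-13780748 (+ strand) and Rrp9 at chr9:106477059-106477358 (+ strand). Counted with the annotated start as position 1, the E-box begins at position 24 in Nle1, 25 in Tsr1 and 38 in Utp20. Rrn3 holds the motif at positions -215 and -48.
Nle1: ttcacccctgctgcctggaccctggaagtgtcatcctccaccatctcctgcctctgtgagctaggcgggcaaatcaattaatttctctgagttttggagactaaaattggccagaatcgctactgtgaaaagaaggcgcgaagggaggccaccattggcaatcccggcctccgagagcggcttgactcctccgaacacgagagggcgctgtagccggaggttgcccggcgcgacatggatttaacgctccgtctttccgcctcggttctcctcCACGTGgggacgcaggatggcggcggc
Tsr1: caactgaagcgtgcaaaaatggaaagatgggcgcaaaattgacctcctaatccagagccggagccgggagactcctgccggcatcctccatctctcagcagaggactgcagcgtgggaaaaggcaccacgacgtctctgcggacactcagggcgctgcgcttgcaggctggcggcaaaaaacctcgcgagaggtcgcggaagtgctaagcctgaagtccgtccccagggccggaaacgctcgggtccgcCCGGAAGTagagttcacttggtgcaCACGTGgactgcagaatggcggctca
Utp20: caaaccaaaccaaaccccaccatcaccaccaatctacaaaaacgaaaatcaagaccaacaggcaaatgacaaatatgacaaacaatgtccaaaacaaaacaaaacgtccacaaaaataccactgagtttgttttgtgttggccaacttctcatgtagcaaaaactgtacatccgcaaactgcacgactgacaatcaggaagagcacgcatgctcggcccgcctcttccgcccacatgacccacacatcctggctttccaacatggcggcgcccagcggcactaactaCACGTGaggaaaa
Rrn3: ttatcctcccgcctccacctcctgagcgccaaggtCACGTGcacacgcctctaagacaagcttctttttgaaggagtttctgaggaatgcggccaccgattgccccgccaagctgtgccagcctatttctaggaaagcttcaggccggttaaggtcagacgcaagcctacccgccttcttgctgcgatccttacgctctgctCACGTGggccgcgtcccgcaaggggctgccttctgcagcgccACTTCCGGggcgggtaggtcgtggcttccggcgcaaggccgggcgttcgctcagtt
Rrp9: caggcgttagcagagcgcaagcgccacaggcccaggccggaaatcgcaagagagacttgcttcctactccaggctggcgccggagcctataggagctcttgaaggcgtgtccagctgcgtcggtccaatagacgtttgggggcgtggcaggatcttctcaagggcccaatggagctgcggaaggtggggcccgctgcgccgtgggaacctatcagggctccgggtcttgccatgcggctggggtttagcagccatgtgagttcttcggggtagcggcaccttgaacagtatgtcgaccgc

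The other groups were each set against WT PreMegEs, which carry no reporter and were not divided by activity of P2, and the comparisons below share the 3 WT libraries. Those of P2+ and P2- PreMegEs also share libraries with the comparison above. Both of these groups differ from WT in the reporter allele and in the sorting by P2, which cannot be told apart here. P2- PreMegEs had higher levels than WT PreMegEs in 24 members and lower levels in 0 (edgeR, adjusted p under 0.05 over 12767 genes), where 6.85% of all genes were higher and 9.60% lower. All 50 fold changes were positive, beside 51.6% of those of all genes, though 1 member turned negative when libraries were scaled to total counts only and 1 without P2- replicate 3. The median log2 fold change was 0.30, and 0 members were called at 2-fold or more (0.572% of all genes). In 34 members the libraries did not overlap (16.9% of all genes). The count was 8 without WT replicate 1, 11 without WT replicate 2 and 14 without WT replicate 3.

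By role, 9 of the 15 large subunit factors, 6 of the 15 small subunit factors, 3 of the 8 RNA polymerase I genes, 3 of the 4 chaperones and scaffold proteins, 2 of the 4 box C/D and 1 of the 4 box H/ACA proteins were higher in P2- than in WT PreMegEs. Ddx21, a helicase that acts in both rRNA transcription and processing, was at 650, 681 and 638 CPM in P2-, 452, 488 and 496 in WT, 446, 469 and 396 in P2+ and 557, 546 and 574 in RUNX1C KO libraries. P2- and RUNX1C KO libraries were both above all WT libraries, while WT and P2+ libraries overlapped. Its log2 fold change was 0.46 ± 0.07 in P2- over WT (adjusted p = 0.00215, edgeR) and -0.13 ± 0.08 in P2+ over WT (adjusted p = 0.339). Rrs1, a large subunit assembly factor, was at 203, 198 and 185 CPM in P2- and at 137, 139 and 153 CPM in WT libraries, and rose by 0.45 ± 0.08 (adjusted p = 0.00385). Utp20 (0.36), Tsr1 (0.36), Nolc1 (0.41) and Wdr12 (0.39) rose as well. The largest of the called changes were those of Mrto4 (0.59 ± 0.15), Bysl (0.56 ± 0.13), Rrp9 (0.55 ± 0.11), Gnl3 (0.52 ± 0.13) and Rrp12 (0.49 ± 0.12). Of these, Bysl, Gnl3, Mrto4 and Rrp12 were not called without WT replicate 1, and Gnl3 lost its call without any of the 3 WT libraries (adjusted p of 0.073 to 0.086, edgeR).

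P2+ PreMegEs had lower levels than WT PreMegEs in 5 members and higher levels in 0 (edgeR, adjusted p under 0.05 over 12941 genes), where 7.07% of all genes were lower and 9.45% higher. The share of members called, 5 of 50, was close to that background. The direction was more uniform, with 47 negative fold changes (49.7% of all genes) and a median of -0.19, beside 0.00 over all genes, and 18 members did not overlap between the groups (17.4%). At 2-fold or more, 0 members were called (1.68% of all genes). Rcl1 had the largest change, with 68.4, 64.9 and 68.3 CPM in WT and 47.4, 48.2 and 45.1 CPM in P2+ libraries (log2 fold change -0.51 ± 0.08, adjusted p = 0.00175), which stood well apart. The others were Nob1 (-0.35, adjusted p = 0.0429), Polr1b (-0.32, adjusted p = 0.0144), Noc3l (-0.32, adjusted p = 0.0280) and Wdr12 (-0.25, adjusted p = 0.0450). Without P2+ replicate 2, a library with high immediate early genes, 11 members were called, and leaving out any of the other libraries left 1 to 3. Rcl1 kept its call under each alternative fit at this threshold, Polr1b lost it only without WT replicate 2 or 3, and the other 3 lost theirs in 5 or more of the fits.

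WT PreMegEs were nearer to P2+ than to P2- PreMegEs for most members. Over the 41 members called lower in P2+ than in P2- PreMegEs, the WT mean lay at a median of 60.5% along the log2 distance between the mean of P2- (0%) and that of P2+ PreMegEs (100%) (quartiles 51.0% and 71.2%), and was closer to P2+ in 31 of them. Over all 2186 genes called lower in that comparison the median was 44.7%. The RUNX1C KO mean lay at 31.6% for the members (quartiles 21.4% and 50.1%) and at 17.0% for all such genes. These positions share libraries with the comparisons above and the same difference of genotype and sorting between WT and the reporter groups. They were not tested. The order P2- above RUNX1C KO above WT above P2+ held for the means of 38 members, beside 14.7% of 13272 genes, and P2- was highest and P2+ lowest in 47 (19.7%). The exceptions were Ubtf and Bop1, which were highest in RUNX1C KO and lowest in WT PreMegEs, and Utp18, which was highest in P2- and lowest in WT PreMegEs.

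**Figure D4:**
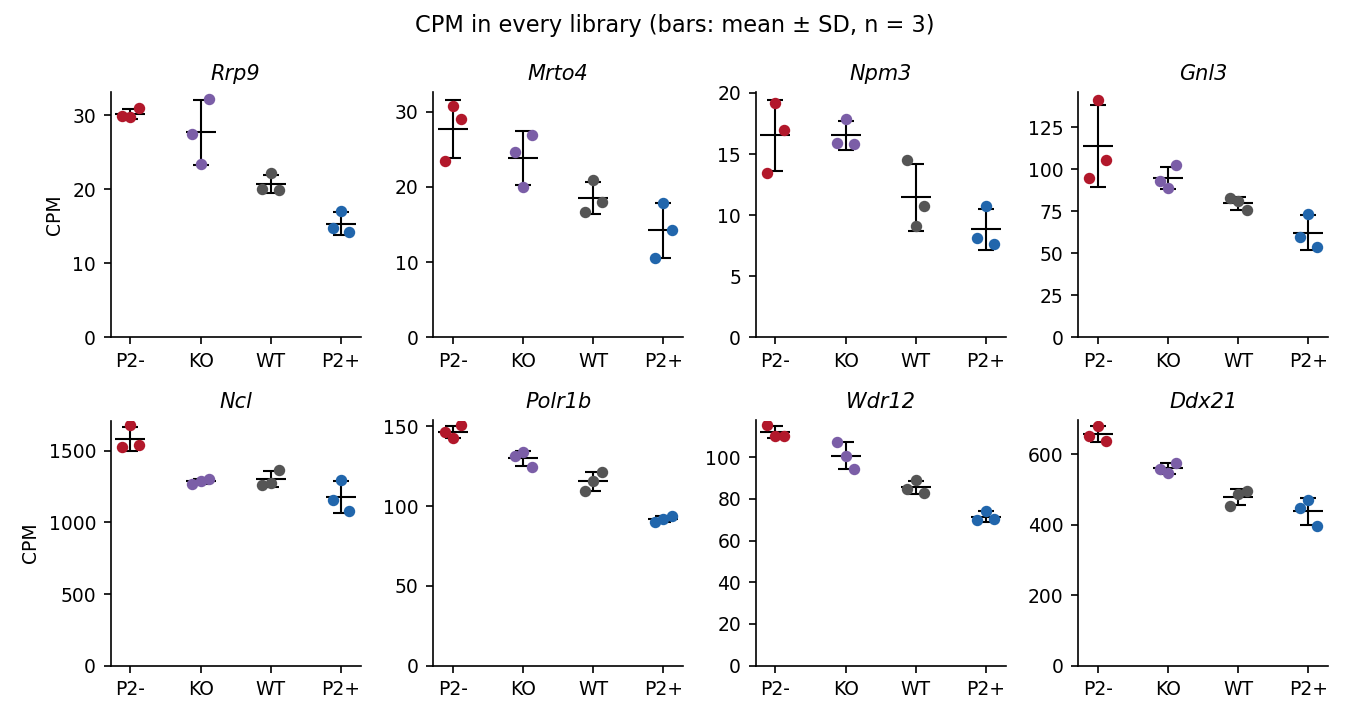
CPM (axes from 0) of 8 members in every library of the 4 groups, with bars for the mean ± SD (n = 3). The upper panels show the 4 members with the largest fold change between P2+ and P2- PreMegEs, and below them Polr1b and Wdr12 have no overlap between any of the groups, while WT and P2+ libraries overlap for Ncl and Ddx21.

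RUNX1C KO PreMegEs had higher levels than WT PreMegEs in 8 members and lower levels in 0 (edgeR, adjusted p under 0.05 over 12784 genes), where 6.18% of all genes were higher and 8.76% lower. The median log2 fold change was 0.14, beside 0.00 over all genes, 39 members were positive (49.5% of all genes) and 21 did not overlap (15.6%), with 0 called at 2-fold or more (0.743%). Whether these libraries were prepared and sequenced together with the others is not given in the sources used here, so a difference between runs and the genotype cannot be told apart.

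Ubtf, whose product binds the rRNA gene promoter, had the smallest adjusted p. It was at 301, 290 and 294 CPM in RUNX1C KO and at 236, 220 and 241 CPM in WT libraries (log2 fold change 0.34 ± 0.06, adjusted p = 0.000811, edgeR), and it was the only one of the 8 that kept its call in every fit at this threshold. In P2- libraries Ubtf was at 297, 265 and 265 CPM and in P2+ libraries at 249, 228 and 243 CPM. The other polymerase I gene was Rrn3, at 133, 128 and 129 CPM in RUNX1C KO and 96.1, 115 and 116 CPM in WT libraries (0.24 ± 0.08, adjusted p = 0.0449). The remaining 6 were Rrp9 (0.41 ± 0.13), Tsr1 (0.24 ± 0.07), Bop1 (0.24 ± 0.08), Gnl3 (0.24 ± 0.08), Wdr12 (0.23 ± 0.07) and Ddx21 (0.22 ± 0.06), with adjusted p between 0.0193 and 0.0454 (edgeR). Ncl did not pass the test, at 1268, 1287 and 1307 against 1261, 1279 and 1365 CPM (log2 fold change -0.02, adjusted p = 0.837), nor did Npm1 (0.06, adjusted p = 0.545). The count fell to 3 without RUNX1C KO replicate 1, to 2 without RUNX1C KO replicate 3, and to 5 without WT replicate 1 or 2.

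Other genes of ribosome production were counted from lists written with earlier results of these data known, so their counts are no independent check of the members. Of 112 further ribosome biogenesis genes tested, 53 were lower and 0 higher in P2+ than in P2- PreMegEs, with a median log2 fold change of -0.34, where 17.0% of all genes were lower. Against WT, 13 of the 112 were lower in P2+ (7.07% of all genes), 24 were higher in P2- (6.85%) and 8 were higher in RUNX1C KO PreMegEs (6.18%), the last a share close to that of all genes. Among the largest changes between P2+ and P2- PreMegEs were those of Nat10, an rRNA acetyltransferase (-0.88 ± 0.14, adjusted p = 0.00157, edgeR), and Utp14a, a processome component (-0.86 ± 0.08, adjusted p = 6.2e-05). Utp14a was also called in the other 3 comparisons, at -0.45 in P2+ over WT, 0.41 in P2- over WT and 0.26 in RUNX1C KO over WT.

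Host genes of snoRNAs, whose introns release the guides of the snoRNPs, were lower in P2+ than in P2- PreMegEs in 6 of 7 cases. The median was -0.76, and 17.0% of all genes were lower. Gas5 was at 244, 460 and 341 CPM in P2-, 315, 285 and 371 in RUNX1C KO, 233, 241 and 212 in WT and 127, 167 and 138 in P2+ libraries, and fell by 1.26 ± 0.21 between P2+ and P2- (adjusted p = 0.00161, edgeR). Snhg3 fell by 1.48 ± 0.19 (adjusted p = 0.000394). Against WT, RUNX1C KO PreMegEs were higher in 4 of the 7 (6.18% of all genes), among them Gas5 (0.49) and Snhg3 (0.59). P2- PreMegEs were higher in 3 (6.85% of all genes). Cytoplasmic ribosomal protein genes, the cargo of the assembly factors, were lower in P2+ than in P2- PreMegEs in 38 of 82 tested. Of these genes 0 were higher, and the median was -0.45. Those of the mitochondrial ribosome were lower in 28 of 75, with 0 higher and a median of -0.29. Both counts stand beside 17.0% of all genes called lower. Many ribosomal protein genes have processed copies in the genome, which makes their counts uncertain.

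In the Myc network, Myc and Mycn had opposite directions between P2+ and P2- PreMegEs. Myc was at 813, 642 and 919 CPM in P2-, 664, 749 and 663 in RUNX1C KO, 616, 662 and 658 in WT and 400, 399 and 396 in P2+ libraries, so that the P2+ libraries lay below all others (log2 fold change against P2- of -0.98 ± 0.12, adjusted p = 0.000301, edgeR, and against WT of -0.69 ± 0.07, adjusted p = 8.4e-05). Mycn was at 56.7, 33.4 and 45.4 CPM in P2-, 92.5, 70.0 and 69.7 in RUNX1C KO, 161, 157 and 163 in WT and 196, 144 and 213 in P2+ libraries, and was higher in P2+ than in P2- PreMegEs by 2.04 ± 0.20 on the log2 scale (adjusted p = 8.93e-05). Elsewhere in the network, Max, which both proteins need to bind DNA, fell by 0.27 between P2+ and P2- (adjusted p = 0.0237, edgeR). Mlx fell by 0.48. Mxd3, a repressor that competes for Max, rose from 4.22, 5.67 and 3.53 to 13.6, 11.6 and 12.3 CPM (adjusted p = 0.000835, edgeR). Between P2- and WT PreMegEs Myc did not pass the test (0.30 ± 0.11, adjusted p = 0.101), nor did it between RUNX1C KO and WT (0.09, adjusted p = 0.393). Mycn was lower than in WT in both, by a log2 fold change of -1.82 ± 0.15 in P2- (adjusted p = 5.27e-05, edgeR) and of -1.06 ± 0.09 in RUNX1C KO PreMegEs (adjusted p = 3.63e-07, edgeR). Whether the level of either gene bears on the members was not tested.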

How the data were processed

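RNA-Seq was measured in 12 libraries of 4 groups. The authors used a strand-specific poly(A) kit, Bowtie2 for alignment to GRCm38 and featureCounts for counting per Ensembl gene. They deposited whole counts that were not normalized. Groups came from the labels. For edgeR 4.0.16 (R 4.3.3), a gene had to reach 1 CPM in 3 or more libraries of the comparison. Counts were scaled by TMM and tested across all genes with the quasi-likelihood F-test on group alone. A gene was called at a Benjamini-Hochberg adjusted p under 0.05. The study's further minimum of 2-fold was an alternative, as were other scalings, no filter, DESeq2 1.42.0, edgeR's exactTest, a replicate block, a fit of all 12 libraries and leaving out libraries. SE is the log2 fold change over the root of F. Mean log2 CPM used a prior count of 2. Lengths came from GENCODE vM21, where 40254 of 41128 genes were found, and copies from blastn 2.17.0 (at least 97% identity over 75 bases). The scripts were tested on simulated data.

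The members and lists were chosen with earlier results of these data known. Every member could be named, and full statistics went to the called members with the largest changes, up to 12 per comparison. Outside the members, genes of the lists were named by size of change, and Max after its values were seen. The same-numbered P2+ and P2- libraries had correlations of their deviations from the group means across genes of 0.386, 0.572 and 0.405, which pairs them. For the other comparisons not every correlation was above 0.1. Pairs of libraries in a group differed by more than counting error (chi-square per degree of freedom of 4.52 to 33.5), and 3 counts, the limit that a count of 0 allows, were 0.207 to 0.288 CPM, which covers counting error only. The study describes the WT, P2+ and P2- libraries as biological replicates, each from pooled mice. The paper does not describe the RUNX1C KO libraries, for which the same was assumed. In every group, p-values measure the spread between the libraries.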

Additional observations from a re-analysis of the deposited data

How the results depend on the processing

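No called result turned its direction under any alternative fit. In P2+ against P2- PreMegEs the count of members called lower lay between 33 and 40 with a library left out and was 36 with edgeR's exactTest, 39 with total counts only, 42 with DESeq2 and 46 with all 12 libraries in 1 fit. With a minimum of 2-fold, 0 members were called in any comparison, and the genes called numbered 1626 (of 4762) for P2+ against P2-, 497 (of 2138) for P2+ against WT, 597 (of 2101) for P2- against WT and 436 (of 1910) for RUNX1C KO against WT. The count of 5 members lower in P2+ than in WT became 3 with the replicate block, 8 with all 12 libraries in 1 fit, 11 without the replicate 2 libraries of P2+ and P2-, and 1 to 11 with a library left out, while all genes called ranged from 1225 to 2455. Of the 24 members higher in P2- than in WT, 8 to 22 were called with a library left out (all genes 1121 to 2180), 18 with total counts only (median 0.25, with 548 genes higher and 1433 lower in place of 875 and 1226) and 16 with the replicate block. The 8 members higher in RUNX1C KO than in WT became 3 with total counts only, 2 with all 12 libraries in 1 fit, 11 with the replicate block, 12 with no filter on low counts, and 2 to 9 with a library left out (all genes 1189 to 1738, median 0.10 to 0.16). Without Npm1 and Ncl the summed level was 5289, 4756, 4252 and 3824 CPM and the mean log2 CPM 6.33, 6.17, 6.02 and 5.83 in P2-, RUNX1C KO, WT and P2+ PreMegEs, in the same order. Beyond the WT comparisons, where the replicate numbers are only shared names, the block for the paired P2+ and P2- libraries raised the count to 48. For the called members with the largest changes (up to 12 per comparison), 428 values under the alternatives kept their side of the threshold and 82 did not, 36 of these in RUNX1C KO against WT. The causes were not tested. Between P2+ and P2- PreMegEs the SE was largest for Fbl, Mrto4, Npm3 and Utp18.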
